A study of Homo sapiens with 8 samples.

Results

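A group of 9 genes that sets or reads out the threshold of cell death is described here, intron by intron, in SUM159 cells given the splicing modulator H3B-8800. These genes are BCL2L1, BAX, BAK1, BAD, BID, CASP2, CASP8, CASP9 and CRADD. The rule took every listed row whose gene is 1 of these 9, and they make up 9 of 15902 listed genes and 22 of 142224 listed introns. Their transcripts hold 45 introns, so 23 introns of the 9 genes were not analysed here.

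SUM159 is an established human breast cancer cell line. H3B-8800 acts on the SF3b complex, the part of the spliceosome that recognises the branch point near the 3′ end of an intron. The J2 antibody binds double-stranded RNA. The 4 groups, each of 2 libraries labelled as biological duplicates, were J2 RNA of drug-treated cells, J2 RNA of vehicle-treated cells, input RNA of drug-treated cells and input RNA of vehicle-treated cells. Drug and vehicle (DMSO) were both given for 12 h, and every library was made from polyadenylated RNA with a stranded kit. Only 1 cell line and 1 time were studied, and RNA recovered with a control antibody was not analysed here. Tests rest on 2 libraries a group and on a spread shared by the 4 groups of 1 fit.

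Cells that die by apoptosis do so along a mitochondrial or a death receptor route. In the mitochondrial route BAX and BAK1 open pores in the outer mitochondrial membrane, the BCL2 family survival proteins hold them back, and BH3-only proteins such as BID and BAD release that brake. Cytochrome c then assembles the apoptosome, which activates caspase 9, whereas death receptors activate caspase 8. Caspase 2 is activated on a separate platform, the PIDDosome, which is built from PIDD1 and the adaptor CRADD (also called RAIDD). Several of these genes, among them BCL2L1 and the caspases, are known to make transcripts of opposing function by alternative splicing.

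For each intron 2 quantities were used. Intronic reads lie inside the intron. Spliced reads are the excess of the second deposited count over the first and were read as reads that span the spliced junction. No file header states this. Levels are in RPM, reads per 1000000 of a library depth that lay between 47000000 and 57000000 reads and was taken from the deposited RPKM. A lower level of spliced reads does not separate less RNA from less complete splicing, and in such bulk samples fewer cells with the RNA and less RNA per cell cannot be told apart. The intronic share is the percentage of intronic reads among intronic and spliced reads. It counts reads anywhere in the intron and is not the fraction of transcripts that keep it. Over all listed introns it was 12.5% and 13.0% in the J2 drug libraries and 3.63% and 3.98% in the J2 vehicle libraries. In the input it was 10.3% and 13.0% with drug and 3.81% and 3.83% with vehicle. Markers of mesenchymal and basal, luminal and immune cells were checked. In the input with vehicle 7 of 8 mesenchymal and basal genes were above 1 RPM of spliced reads, ZEB1 being below, and ESR1 and PGR were at 0. Of 9 luminal genes ERBB2 (36.7 RPM), GATA3 (2.24) and KRT8 (113) were above 1 RPM, and of 4 listed immune genes CD68 was. Of the mesenchymal and basal genes VIM (464 RPM), AXL (261) and MSN (147) were above KRT8, and FN1 (40.9) above ERBB2. CD44 (10.4), CAV1 (13.0), SNAI2 (2.72) and ZEB1 (0.784) were below ERBB2.

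The 9 genes differed widely in level. Per listed intron, spliced reads in the input with vehicle averaged 21.2 RPM in BAX, 17.7 in BAD, 8.56 in BAK1, 7.72 in BCL2L1, 7.52 in BID and 6.51 in CRADD. The caspases were far lower, at 0.697 RPM in CASP9, 0.282 in CASP8 and 0.180 in CASP2. BCL2L1 (7.27 and 8.18 RPM) and BID (7.35 and 7.69 RPM per listed intron) overlapped between libraries, and the other neighbours in this order did not. CASP8 was below the filter of 1 RPM in at least 2 libraries, so 8 of 9 genes entered the tests of spliced reads.

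With drug, spliced reads of the 8 genes moved in both directions. CASP2 had the largest rise in both kinds of RNA and CASP9 the largest fall in J2 RNA. In the input the falls of CASP9 (-1.12 ± 0.43) and BAK1 (-1.03 ± 0.06) differed by less than the SE of CASP9. In J2 RNA 4 of 8 rose (CASP2, BCL2L1, BID and BAD) and 4 fell (CASP9, BAX, BAK1 and CRADD). In the input 3 rose (CASP2, BCL2L1 and BID), 4 fell (CASP9, BAK1, BAX and BAD) and CRADD was not called. CASP9 passed the filter through its vehicle libraries alone, where it is high, so its calls, here and further on, are a description. These calls are from edgeR's quasi-likelihood test with Benjamini-Hochberg adjustment over 8461 genes at a threshold of 0.05. The background was wide. In J2 RNA 74.1% of all tested genes were called (34.6% higher and 39.5% lower), and in the input 70.4% (21.8% higher and 48.7% lower), so counts of 8 and 7 of 8 are close to it. The median log2 fold change was -0.16 over the 8 genes and -0.03 over all genes in J2 RNA, and -0.12 against -0.38 in the input. Under median-of-ratios scaling the median over all genes moved to 0.04 in J2 RNA and 0.03 in the input. A change of about 0.4 in the input therefore depends on the scaling.

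**Figure D1:**
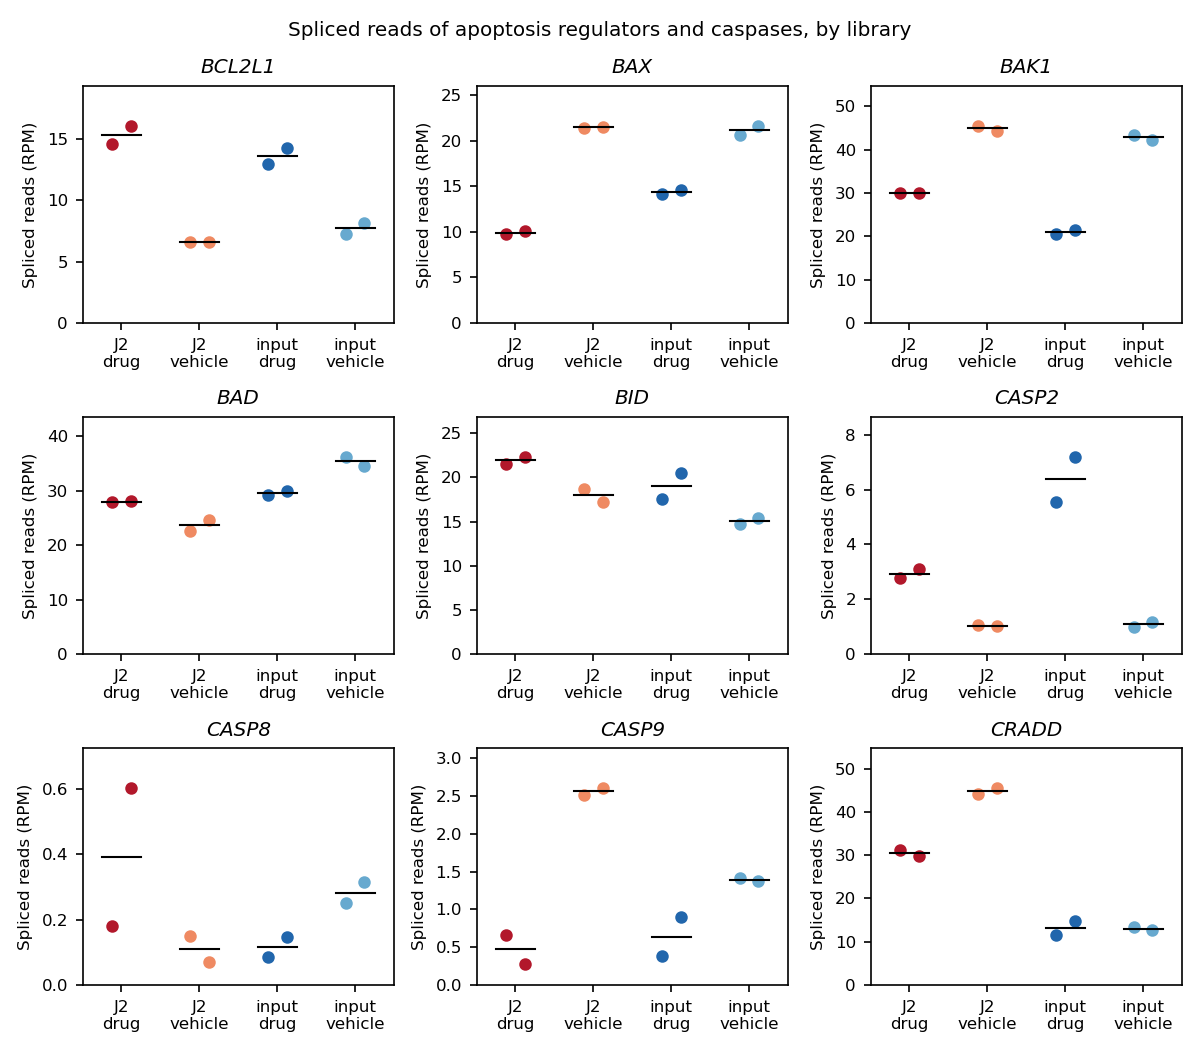
Spliced reads of each gene in RPM, summed over its listed introns, for the 2 libraries (points) of each group, with a line at the group mean. CASP2 reaches 5.53 and 7.21 RPM in the input with drug against 1.00 and 1.16 RPM with vehicle, and CASP9 is below its vehicle libraries in both kinds of RNA.

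**Figure D2:**
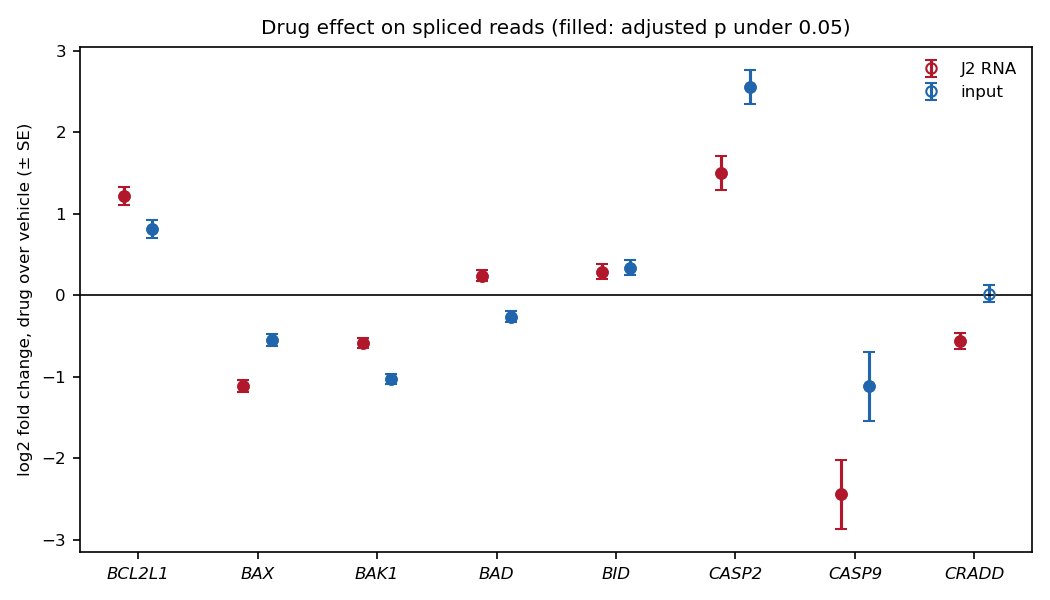
The log2 fold change of spliced reads, drug over vehicle, with SE, in J2 RNA (red) and in the input (blue) for the 8 tested genes. Filled points passed the threshold, and CRADD in the input (0.02) did not.

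Intronic reads were frequent enough to test in 4 of 9 genes, BAK1, BAD, CASP2 and CRADD. In J2 RNA they rose in CASP2, BAK1 and BAD and fell in CRADD, and in the input they rose in CASP2 and BAK1 and fell in CRADD (edgeR). The background was 89.5% of 3992 genes called in J2 RNA (83.7% higher and 5.74% lower) and 84.8% in the input (78.3% higher and 6.51% lower). CASP2 and BAK1 reached 1 RPM of intronic reads in drug libraries alone, so they entered only through the group where they are high, and their counts are given as a description. The intronic to spliced ratio, tested with limma on a log2 scale after adding 1 to both counts, rose in BAK1 and CASP2 in both kinds of RNA and fell in CRADD in J2 RNA. It was tested in the same 4 genes, so the ratio calls of BAK1 and CASP2 are a description too. Here the background was 87.0% of 3837 genes called in J2 RNA (83.5% higher and 3.49% lower) and 86.2% in the input (83.8% higher and 2.37% lower). Over all genes the median log2 change of the ratio was 2.44 in J2 RNA and 2.30 in the input. Of the 22 introns 12 could be tested one by one. The ratio rose in 5 and fell in 1 in J2 RNA, and rose in 5 and fell in none in the input (limma). CASP2 intron 9, BID intron 4 and BAK1 introns 2, 3 and 5 did not reach 5 intronic reads in 2 vehicle libraries. They entered through their drug libraries, where they are high, so their calls and p-values, here and further on, are a description. The background was 58.7% of 22930 introns called in J2 RNA (55.1% higher and 3.60% lower) and 59.6% in the input (57.5% higher and 2.07% lower). Over all these introns the median log2 change of the ratio was 2.19 in J2 RNA and 2.31 in the input.

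**Figure D3:**
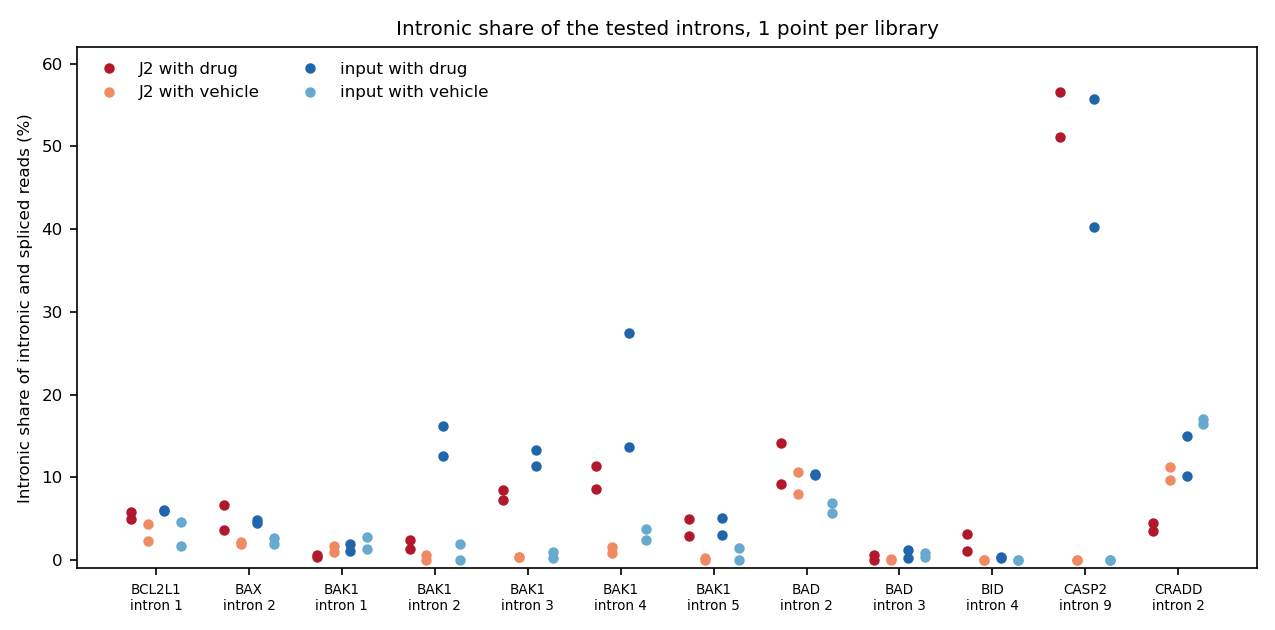
Intronic share, in percent of intronic and spliced reads, of the 12 tested introns, with 1 point per library coloured by group. CASP2 intron 9 stands at 51.1% and 56.6% in J2 RNA with drug and at 0% in every vehicle library, and CRADD intron 2 has lower shares with drug in both kinds of RNA.

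CASP2, an initiator caspase, had more spliced reads with drug and, in the input, the largest change in spliced reads of the 8 tested genes. Its spliced reads were 2.78 and 3.09 RPM in J2 RNA with drug and 1.06 and 1.02 RPM in J2 RNA with vehicle. In the input they were 5.53 and 7.21 RPM with drug and 1.00 and 1.16 RPM with vehicle. All 4 drug libraries lay above all 4 vehicle libraries, and the input drug libraries were the highest. The log2 fold change was 1.50 ± 0.21 in J2 RNA (edgeR, adjusted p = 0.00012) and 2.56 ± 0.21 in the input (edgeR, adjusted p = 3.0e-06).

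The CASP2 introns did not share this rise evenly. The 6 listed introns (2, 4, 5, 6, 8 and 9 of 9) lie on the plus strand of chromosome 7. In the input, spliced reads over the group were 9.16 times as many with drug as with vehicle across intron 6 (123 against 14 reads, 95% exact interval 5.25 to 17.2) and 7.48 times across intron 2 (122 against 17, 4.48 to 13.3). The ratio was 5.54 across intron 8 (234 against 44), 5.10 across intron 9 (93 against 19) and 3.99 across intron 5 (23 against 6). Intron 4 held 11 reads with drug and 7 with vehicle, a ratio of 1.64 whose interval, 0.580 to 4.98, includes no change. In J2 RNA the ratios ran between 2.00 (intron 2, 45 against 24 reads) and 4.81 (intron 5, 18 against 4). Such intervals, here and further on, pool the reads of both libraries of a group and cover counting error only. They leave out the spread between libraries, and there were no molecular identifiers.

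Most reads inside CASP2 with drug were in its last intron, with 53 of 67 in J2 RNA and 83 of 97 in the input. The others lay in introns 5 and 8. Intron 9 (chr7:143304784-143304939, GRCh38, 156 bases) held 23 and 30 intronic against 22 and 23 spliced reads in J2 RNA with drug, and none against 10 and 11 in J2 RNA with vehicle. In the input it held 44 and 39 intronic against 35 and 58 spliced reads with drug, and none against 10 and 9 with vehicle. Its intronic share was thus 53.9% ± 3.88 (SD, n = 2) in J2 RNA with drug and 48.0% ± 10.95 (SD, n = 2) in the input with drug. The vehicle groups had 0 of 21 reads in J2 RNA, which allows a share of up to 14.3%, and 0 of 19 in the input, which allows up to 15.8%. The intronic to spliced ratio of intron 9 rose by 3.74 ± 0.48 in J2 RNA and 3.27 ± 0.48 in the input on the log2 scale (limma, adjusted p = 0.00057 and 0.0011), a scale on which the added 1 understates the change. Intron 9 entered this test through its drug libraries alone, so these p-values are a description. By contrast, introns 2 and 6 had no intronic read in any library. With drug, 0 of 59 reads at intron 6 in J2 RNA allows a share of up to 5.08%, and 0 of 123 in the input allows up to 2.44%. Intron 8 was between these, at 6.02% ± 0.192 in J2 RNA and 2.43% ± 2.21 in the input with drug.

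The coding sequences that meet across these introns are shown because these introns of 1 transcript had a high intronic share, a low one and no intronic read. Each line runs 5′ to 3′ over 27 exon bases on either side, from GENCODE 29 transcripts on GRCh38, with the last 3 and first 3 exon bases in capitals.
CASP2 intron 9: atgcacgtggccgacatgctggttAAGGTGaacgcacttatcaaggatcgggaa
CASP2 intron 8: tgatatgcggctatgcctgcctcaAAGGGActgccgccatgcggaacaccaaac
CASP2 intron 6: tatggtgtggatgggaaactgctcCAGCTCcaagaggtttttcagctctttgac
Intron 8 lies at chr7:143303934-143304673 and intron 6 at chr7:143300052-143300203. The exons before introns 9 and 8 both ended in AAG and the exon before intron 6 in CAG, and introns 6 and 9 are 152 and 156 bases long. These 3 introns were picked after their values were seen, so nothing is read from their exon ends or lengths.

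**Figure D4:**
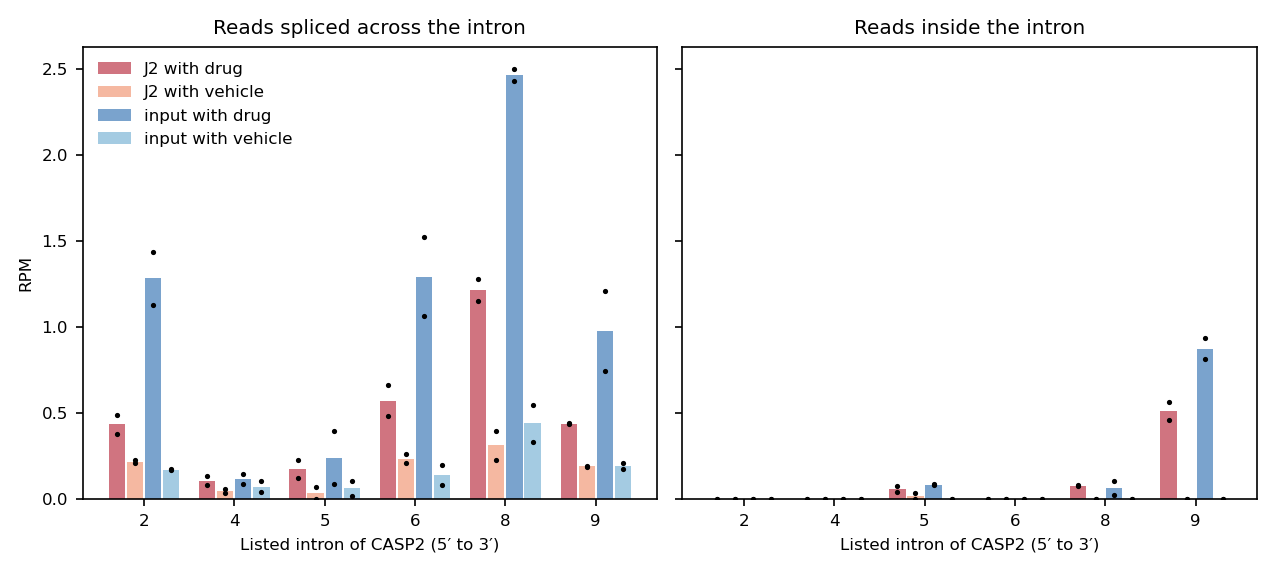
Spliced reads (left) and intronic reads (right) in RPM at each listed intron of CASP2, as group means (bars) with both libraries (points). With drug, spliced reads are high at introns 2, 6, 8 and 9, and 53 of 67 intronic reads in J2 RNA and 83 of 97 in the input are at intron 9.

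Summed over CASP2, intronic reads were 67 in J2 RNA with drug against 2 with vehicle, a ratio of 35.8 with a 95% exact interval of 9.53 to 301. In the input there were 97 with drug and none with vehicle, at least 33.7-fold higher against a floor of 3 counts over the vehicle group. The gene's intronic to spliced ratio rose by 2.91 ± 0.49 in J2 RNA (2.10 to 3.73 without 1 J2 vehicle library) and 3.16 ± 0.49 in the input (limma, adjusted p = 0.00098 and 0.00068), calls that median-of-ratios scaling of both quantities ended at 1.16 and 1.76. CASP2 entered this test through drug libraries alone, so these p-values are a description. Intron 5, which holds the pseudogene RN7SL481P on the same strand, had 6 and 8 of the intronic reads with drug in J2 RNA and the input, and those may belong to either.

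CRADD, the adaptor that brings caspase 2 to the PIDDosome, went the other way in its introns. Its spliced reads were 31.3 and 29.7 RPM in J2 RNA with drug and 44.1 and 45.6 RPM in J2 RNA with vehicle. Input libraries held 11.6 and 14.8 RPM with drug and 13.3 and 12.7 RPM with vehicle. The J2 libraries lay above the input libraries throughout, and within the input the groups overlapped. Drug over vehicle, the log2 fold change was -0.56 ± 0.10 in J2 RNA (edgeR, adjusted p = 0.00067) and 0.02 ± 0.11 in the input (edgeR, adjusted p = 0.87). Scaling by TMM, median-of-ratios or DESeq2 turned the input value into a called rise of 0.30, 0.43 and 0.43.

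Intronic reads of CRADD were 1.10 and 1.36 RPM in J2 RNA with drug against 4.30 and 5.28 RPM with vehicle (log2 fold change -1.96 ± 0.21, edgeR, adjusted p = 1.8e-09). The input had 1.83 and 1.54 RPM with drug against 2.50 and 2.43 RPM with vehicle (-0.55 ± 0.21, edgeR, adjusted p = 0.020). Both drug groups lay below their vehicle groups, where intronic reads fell in only 5.74% of all tested genes in J2 RNA and 6.51% in the input. The fall in the input was not called without input drug replicate 2 (-0.43) or input vehicle replicate 1 (-0.53). Nearly all of these reads lay in intron 2 (chr12:93679073-93849969, 170897 bases), which held 125 of 127 in J2 RNA with drug and 529 of 529 with vehicle. Its intronic share was 3.97% ± 0.714 in J2 RNA with drug and 10.4% ± 1.11 with vehicle, and 12.5% ± 3.38 in the input with drug and 16.8% ± 0.439 with vehicle (SD, n = 2 each). The ratio of intron 2 fell in J2 RNA (-1.49 ± 0.46, limma, adjusted p = 0.025), a call lost without any 1 of the 4 J2 libraries (-1.30 to -1.68), and had -0.51 ± 0.46 in the input (limma, adjusted p = 0.36). This intron spans 12 exons of other CRADD transcripts and exons of 3 other genes, 2 of them on the same strand, and reads of these cannot be told apart. The small intron 1, outside the coding sequence, had 123 spliced reads in J2 RNA with drug against 426 with vehicle (ratio 0.308, 95% exact interval 0.250 to 0.378), and 129 against 123 in the input (1.09, 0.847 to 1.41). By library, the J2 RNA had 87 and 36 of these reads with drug and 205 and 221 with vehicle. The drug libraries thus differed from each other by more than the interval covers.

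CASP9, the initiator caspase of the apoptosome, had fewer spliced reads with drug. They were 0.660 and 0.283 RPM in J2 RNA with drug and 2.51 and 2.61 RPM in J2 RNA with vehicle. In input RNA these were 0.383 and 0.896 RPM with drug and 1.42 and 1.37 RPM with vehicle. No drug library reached a vehicle library, and only vehicle libraries passed the filter of 1 RPM. CASP9 thus entered the test through the groups where it is high, so its calls and p-values are a description. On the log2 scale the change was -2.44 ± 0.43 in J2 RNA (edgeR, adjusted p = 0.00057) and -1.12 ± 0.43 in the input (edgeR, adjusted p = 0.039). Without J2 drug replicate 1 or 2 the value in J2 RNA was -3.17 or -1.95, both called. The call in the input ended under TMM, median-of-ratios and DESeq2 (-0.85, -0.72 and -0.72) and without input drug replicate 1 (-0.64, against -1.86 without replicate 2), input vehicle replicate 1 (-1.10) or 2 (-1.14), or either J2 vehicle library (-1.12 each). Both listed introns, 7 and 8 of 8, had fewer spliced reads, with 27 against 139 and 21 against 143 reads in J2 RNA and 31 against 81 and 30 against 57 in the input. Intronic reads were 6 with drug and 2 with vehicle in J2 RNA and 8 and 2 in the input, ratios of 3.20 and 4.17 whose 95% exact intervals, 0.573 to 32.5 and 0.832 to 40.3, include no change.

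CASP8, the initiator caspase of death receptors, was close to the limit of detection. Its only listed intron, 4 of 8, had 9 and 32 spliced reads in J2 RNA with drug and 8 and 4 in J2 RNA with vehicle. In the input it had 4 and 7 with drug and 12 and 16 with vehicle. The J2 drug libraries differed from each other by more than the lower one did from the vehicle libraries, and no intronic read was seen in any library. In the input both drug libraries lay below both vehicle libraries (ratio 0.409, 95% exact interval 0.184 to 0.848), without a test of conditions because the gene did not pass the filter.

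BAK1, a pore-forming effector, had fewer spliced and more intronic reads with drug. Its spliced reads were 30.0 and 30.0 RPM in J2 RNA with drug and 45.5 and 44.2 RPM in J2 RNA with vehicle. Input values were 20.6 and 21.5 RPM with drug and 43.4 and 42.2 RPM with vehicle. The groups did not overlap, and the input drug libraries were the lowest. This gave a log2 fold change of -0.58 ± 0.06 in J2 RNA (edgeR, adjusted p = 1.5e-05) and -1.03 ± 0.06 in the input (edgeR, adjusted p = 3.4e-07). Intronic reads were 1.52 and 1.34 RPM in J2 RNA with drug against 0.283 and 0.298 RPM with vehicle, and 2.28 and 2.81 RPM in the input with drug against 0.479 and 0.725 RPM with vehicle. They rose by 2.29 ± 0.33 in J2 RNA and 2.07 ± 0.29 in the input on the log2 scale (edgeR, adjusted p = 3.7e-07 and 2.4e-07), close to the medians of all genes, 2.20 and 1.73. Relative to the common shift, under TMM, median-of-ratios and DESeq2, the rise was 0.12, 0.13 and 0.14 in J2 RNA and 0.41, 0.38 and 0.39 in the input, and was not called. The intronic to spliced ratio rose by 2.81 ± 0.24 in J2 RNA and 3.09 ± 0.24 in the input (limma, adjusted p = 2.9e-05 and 2.4e-05), and median-of-ratios scaling left a rise that was not called in J2 RNA (0.43). BAK1 entered the tests of intronic reads and of the ratio through its drug libraries alone, so their p-values are a description.

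All 5 introns of BAK1 were listed, so the pattern along the whole gene could be read. Intron 1, outside the coding sequence, did not gain intronic reads, with 3 and 13 in J2 RNA and 6 and 18 in the input, drug against vehicle. Its ratio had log2 changes of -1.06 ± 0.54 and -0.14 ± 0.54 (limma, adjusted p = 0.13 and 0.84). Introns 2 to 5 had higher intronic shares with drug in every library of both kinds of RNA. Intron 4 reached 11.4% and 8.64% in J2 RNA with drug against 0.889% and 1.57% with vehicle, and 13.7% and 27.4% in the input with drug against 3.75% and 2.45% with vehicle (log2 ratio change 3.01 ± 0.58 and 2.86 ± 0.58, limma, adjusted p = 0.0035 and 0.0045). Intron 3 had 7.21% and 8.43% in J2 RNA with drug against 0.414% and 0.381% with vehicle, and 11.3% and 13.3% in the input with drug against 0.926% and 0.198% with vehicle (3.86 ± 0.57 and 4.43 ± 0.57, limma, adjusted p = 0.0011 and 0.00069). Those 2 introns had the highest shares of the gene in J2 RNA with drug. Without 1 library the values in the input ran from 2.25 to 3.47 for intron 4 (drug libraries) and 3.68 to 5.18 for intron 3 (vehicle libraries).

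Intron 2 of BAK1 had its highest shares in the input with drug. It had 2.38% and 1.39% in J2 RNA with drug against 0% and 0.624% with vehicle, and 16.1% and 12.6% in the input with drug against 0% and 1.95% with vehicle. The ratio rose by 4.62 ± 1.13 in the input (limma, adjusted p = 0.010, and not called without input drug replicate 1, at 4.41, or with median-of-ratios scaling, at 3.14) and had 2.42 ± 1.13 in J2 RNA (limma, adjusted p = 0.10). The size of both moved when a vehicle library was left out, with 2.95 and 6.29 in the input without input vehicle replicate 1 and 2, and 1.36 and 3.47 in J2 RNA without J2 vehicle replicate 1 and 2. The interaction was -2.20 ± 1.60 (limma, adjusted p = 0.55). Intron 5 rose by 4.06 ± 0.90 in J2 RNA and 2.69 ± 0.90 in the input (limma, adjusted p = 0.0066 and 0.035). Without J2 vehicle replicate 1 or 2 the value of intron 5 in J2 RNA was 4.68 or 3.44. The call of intron 5 in the input was lost without either input drug library (2.34 and 3.04), without input vehicle replicate 1 (1.38, against 3.999 without replicate 2) and in several further fits. Intron 4 with median-of-ratios scaling had 1.28 in J2 RNA and 1.15 in the input, and intron 5 had 2.73 and 1.28, neither called. In the main fit introns 4 (2.86) and 5 (2.69) in the input were near the median of all tested introns, 2.31.

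The exon junctions of BAK1 are shown for the called introns, with coordinates on the minus strand of GRCh38 and capitals as above, because the gene carries called introns beside each other.
BAK1 intron 2: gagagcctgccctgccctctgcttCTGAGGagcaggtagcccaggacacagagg
BAK1 intron 3: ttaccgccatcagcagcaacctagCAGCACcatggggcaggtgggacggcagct
BAK1 intron 4: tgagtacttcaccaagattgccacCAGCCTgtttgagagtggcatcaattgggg
BAK1 intron 5: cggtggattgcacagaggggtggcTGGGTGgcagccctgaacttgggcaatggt
They lie at chr6:33575929-33577534 (intron 2), chr6:33575442-33575792 (intron 3), chr6:33574215-33575297 (intron 4) and chr6:33573908-33574033 (intron 5). Intron 3 overlaps an exon of GGNBP1 on the other strand. Intron 4 contains a 20-base exon of another annotated BAK1 transcript (chr6:33574506-33574525), printed in capitals between 20 bases of each neighbouring exon.
BAK1 exon inside intron 4: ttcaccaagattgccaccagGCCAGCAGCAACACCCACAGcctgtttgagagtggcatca
The files give no position within an intron, so intronic reads of intron 4 could not be divided between this exon and the rest. In J2 RNA, spliced reads across intron 4 were the lowest share of their vehicle level among the BAK1 introns (357 against 885 reads, ratio 0.431, 95% exact interval 0.380 to 0.488). Intron 3 had 803 against 1004 (0.854, 0.777 to 0.938). The input did not share this order. There intron 3 had the lowest ratio (0.447), and introns 1 (0.465) and 2 (0.483) were also below introns 4 (0.534) and 5 (0.554).

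BAX, the other pore-forming effector, had fewer spliced reads with drug, with a wider gap in J2 RNA. They were 9.76 and 10.1 RPM in J2 RNA with drug and 21.4 and 21.6 RPM in J2 RNA with vehicle. In the input they were 14.2 and 14.6 RPM with drug and 20.7 and 21.7 RPM with vehicle. Drug and vehicle libraries did not overlap, and the vehicle libraries of J2 RNA and input overlapped. The log2 fold change was -1.11 ± 0.08 in J2 RNA (edgeR, adjusted p = 9.0e-07) and -0.55 ± 0.07 in the input (edgeR, adjusted p = 0.00011). The call in the input ended under median-of-ratios scaling and DESeq2 (-0.14 each). Only intron 2 of 3 was listed (chr19:48956334-48960809, 4476 bases, with 1 exon of another BAX transcript inside). Its intronic share was 6.69% and 3.60% in J2 RNA with drug against 1.90% and 2.23% with vehicle, and 4.43% and 4.87% in the input with drug against 2.65% and 1.95% with vehicle. All drug libraries lay above all vehicle libraries, but the ratio was not called (1.30 ± 0.49 and 1.05 ± 0.49, limma, adjusted p = 0.054 and 0.10). Both changes were below the medians of all tested introns, 2.19 in J2 RNA and 2.31 in the input.

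BCL2L1, which encodes the survival protein BCL-xL and, by another 5′ splice site, the shorter BCL-xS, had more spliced reads with drug. They were 14.6 and 16.1 RPM in J2 RNA with drug and 6.62 and 6.56 RPM in J2 RNA with vehicle. Input libraries held 12.9 and 14.2 RPM with drug and 7.27 and 8.18 RPM with vehicle. All drug libraries lay above all vehicle libraries. Drug over vehicle, the log2 fold change was 1.22 ± 0.11 in J2 RNA (edgeR, adjusted p = 5.0e-06) and 0.81 ± 0.11 in the input (edgeR, adjusted p = 8.5e-05). Only intron 1 of 2 was listed, 269 bases outside the coding sequence (chr20:31722349-31722617). The intron at which BCL-xL and BCL-xS are chosen was not analysed here, so the balance of these forms has no value. Intronic reads of intron 1 were 45 and 44 in J2 RNA with drug against 16 and 9 with vehicle, and 39 and 43 in the input with drug against 17 and 7 with vehicle. They were higher in every drug library, yet the ratio to spliced reads was not called (0.68 ± 0.60 and 1.05 ± 0.60, limma, adjusted p = 0.36 and 0.17). These changes were below the medians of all tested introns, 2.19 in J2 RNA and 2.31 in the input. That intron overlaps exons of 2 other BCL2L1 transcripts and the other-strand gene ABALON, and reads of these cannot be told apart.

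BID, a BH3-only protein that caspase 8 cleaves into its active form, rose in both kinds of RNA. Its spliced reads were 21.6 and 22.4 RPM in J2 RNA with drug and 18.7 and 17.3 RPM in J2 RNA with vehicle. The input had 17.6 and 20.5 RPM with drug and 14.7 and 15.4 RPM with vehicle. Drug libraries lay above vehicle libraries in each kind of RNA. On the log2 scale the change was 0.29 ± 0.09 in J2 RNA (edgeR, adjusted p = 0.014, and not called without J2 vehicle replicate 2, at 0.23) and 0.34 ± 0.09 in the input (edgeR, adjusted p = 0.0078, and not called without input drug replicate 2, at 0.22, or input vehicle replicate 1, at 0.31).

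The 2 listed introns of BID, 4 and 5 of 5, moved apart in J2 RNA. Across intron 4 there were 889 and 997 spliced reads in J2 RNA with drug against 654 and 682 with vehicle (ratio 1.51, 95% exact interval 1.40 to 1.62). Across intron 5 there were 190 and 189 with drug against 336 and 302 with vehicle (0.634, 0.557 to 0.722). In the input both had more spliced reads with drug, with ratios of 1.15 (1.06 to 1.24) for intron 4 and 1.69 (1.47 to 1.95) for intron 5. Intron 4 (chr22:17738230-17739348) gained intronic reads in J2 RNA, with 10 and 32 against none in either vehicle library, at least 14.95-fold higher against a floor of 3 counts over the vehicle group. The ratio of intron 4 rose by 3.76 ± 0.56 in J2 RNA (4.47 and 3.05 without J2 drug replicate 1 and 2) and had 1.45 ± 0.56 in the input (limma, adjusted p = 0.0011 and 0.056), and the interaction was 2.31 ± 0.79 (limma, adjusted p = 0.22). The exons on either side of both introns are shown because their spliced reads moved apart (minus strand, capitals as above), and the last exon has 9 coding bases after intron 5 (chr22:17735592-17738016).
BID intron 4: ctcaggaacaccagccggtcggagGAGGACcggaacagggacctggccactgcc
BID intron 5: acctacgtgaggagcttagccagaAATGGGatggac
Spliced reads of introns 4 and 5 come from the same libraries and gene, so these ratios are given without a test of the difference.

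BAD, a BH3-only protein that binds the survival proteins, had spliced reads that rose in J2 RNA and fell in the input, a fall that other scalings turned round. They were 27.9 and 28.1 RPM in J2 RNA with drug and 22.7 and 24.7 RPM in J2 RNA with vehicle. In input RNA these were 29.1 and 30.02 RPM with drug and 36.3 and 34.6 RPM with vehicle. Drug libraries were above vehicle libraries in J2 RNA and below them in the input. This gave a log2 fold change of 0.24 ± 0.07 in J2 RNA (edgeR, adjusted p = 0.0097, and not called without J2 vehicle replicate 1, at 0.18) and -0.26 ± 0.07 in the input (edgeR, adjusted p = 0.0065). The fall in the input is no larger than the median of all genes (-0.38), was not called without input vehicle replicate 1 (-0.23), and turned to 0.022, 0.15 and 0.15 under TMM, median-of-ratios and DESeq2.

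Intronic reads of BAD were 2.44 and 1.36 RPM in J2 RNA with drug against 0.981 and 1.49 RPM with vehicle, and 1.87 and 1.88 RPM in the input with drug against 1.44 and 1.22 RPM with vehicle. The groups overlapped in J2 RNA. The log2 fold changes were 0.61 ± 0.27 (edgeR, adjusted p = 0.038, and not called without J2 drug replicate 1, at 0.13, J2 vehicle replicate 1, at 0.34, or either input drug library) and 0.50 ± 0.28 (edgeR, adjusted p = 0.093). Relative to the common shift, under TMM, median-of-ratios and DESeq2, they were -1.57, -1.55 and -1.55 in J2 RNA and -1.16, -1.18 and -1.18 in the input. Most of the reads lay in intron 2 (chr11:64271804-64284181, 12378 bases), whose share was 11.6% ± 3.52 in J2 RNA with drug and 9.32% ± 1.90 with vehicle, and 10.3% ± 0.130 in the input with drug and 6.33% ± 0.868 with vehicle (SD, n = 2 each). That intron spans 4 exons of other BAD transcripts and overlaps GPR137 on the other strand, and reads of these cannot be told apart. Intron 3 held 4 against 1 intronic reads in J2 RNA and 10 against 11 in the input, beside 1308 to 1733 spliced reads in each group.

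The second question of the design is how J2 RNA differed from the input. Of the 8 tested genes, spliced reads of CRADD and BAK1 were higher and those of CASP2 and BAX lower in J2 RNA than in the input with drug (4 of 8, background 55.6%, with 28.2% higher and 27.4% lower). With vehicle those of CRADD and BID were higher and those of BAD lower (3 of 8, background 60.7%, with 16.4% higher and 44.3% lower). CRADD stood out in size, with 30.5 ± 1.13 RPM in J2 RNA against 13.2 ± 2.30 RPM in the input with drug (log2 fold change 1.21 ± 0.11, edgeR, adjusted p = 1.1e-05). With vehicle it had 44.9 ± 1.06 RPM in J2 RNA against 13.0 ± 0.444 RPM in the input (1.79 ± 0.11, edgeR, adjusted p = 2.1e-06; SD, n = 2 each). With drug only intron 2 of CRADD was higher in J2 RNA (29.3 against 11.8 RPM), while intron 1 had 1.21 against 1.36 RPM. With vehicle both introns were higher, at 41.0 against 11.8 RPM for intron 2 and 3.87 against 1.24 RPM for intron 1. BAK1 had 0.51 ± 0.06 with drug and 0.07 ± 0.06 with vehicle, BAX -0.54 ± 0.08 and 0.02 ± 0.07, and CASP2 -1.12 ± 0.19 and -0.06 ± 0.22. BAD had -0.08 ± 0.07 with drug and -0.58 ± 0.07 with vehicle, and its call with vehicle ended in DESeq2 (-0.20). BID had 0.21 ± 0.09 and 0.26 ± 0.09, and its call with vehicle was lost without any 1 of the 4 vehicle libraries (0.20 to 0.31). TMM, median-of-ratios and DESeq2 also called BAK1 (0.33, 0.45 and 0.45) and BAX (0.28, 0.40 and 0.40) higher in J2 RNA with vehicle.

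Intronic reads were compared in the same way. BAK1 had fewer in J2 RNA with drug (log2 fold change -0.83 ± 0.26, edgeR, adjusted p = 0.0099), the only 1 of 4 genes called (background 45.3%, with 26.5% higher and 18.9% lower), and the call was lost without input drug replicate 2 (-0.67) or J2 drug replicate 2 (-0.74). With vehicle BAK1 had fewer (-1.05 ± 0.37, edgeR, adjusted p = 0.027) and CRADD more (0.96 ± 0.19, edgeR, adjusted p = 0.00036), 2 of 4 genes (background 37.2%, with 7.84% higher and 29.4% lower). The BAK1 call with vehicle was lost without input vehicle replicate 2 (-0.72), without either J2 vehicle library (-1.01 and -1.09), and under TMM, median-of-ratios and DESeq2 (-0.63, -0.61 and -0.61). The intronic to spliced ratio was lower in J2 RNA with drug in BAK1 (-1.33 ± 0.24) and CRADD (-1.67 ± 0.26, limma, adjusted p = 0.019 and 0.012), 2 of 4 genes (background 14.0%, with 7.06% higher and 6.98% lower). With vehicle it was lower in BAK1 (-1.05 ± 0.24, limma, adjusted p = 0.022), 1 of 4 (background 27.5%, with 8.91% higher and 18.6% lower). Each of these ratio calls was lost in some fits without 1 library. With drug, BAK1 lost its call without any 1 of the 4 libraries compared (-1.21 to -1.45), and CRADD without either input drug library (-1.37 and -1.97) or J2 drug replicate 1 (-1.48). With vehicle, BAK1 lost it without input vehicle replicate 2 (-0.74) or J2 vehicle replicate 1 (-0.998).

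The drug effect itself differed between J2 RNA and the input in 6 of 8 genes by spliced reads (the interaction, counted as J2 RNA minus input), against a background of 49.6% (35.8% higher and 13.8% lower). It was higher in J2 RNA for BAD (0.50 ± 0.10), BAK1 (0.44 ± 0.08) and BCL2L1 (0.40 ± 0.15, edgeR, adjusted p = 0.0023, 0.0022 and 0.047). It was lower in J2 RNA for CASP2 (-1.06 ± 0.29), CRADD (-0.58 ± 0.15) and BAX (-0.56 ± 0.11, edgeR, adjusted p = 0.014, 0.0095 and 0.0021). For CASP2 the fold was thus larger in the input, and for BAX the fall was larger in J2 RNA. BID (-0.05 ± 0.13) and CASP9 (-1.32 ± 0.61) were not called (edgeR, adjusted p = 0.78 and 0.098). Over all genes the interaction had a median of 0.28, which median-of-ratios scaling moved to -0.05. The 3 positive calls ended under that scaling, at 0.16 for BAD, 0.11 for BAK1 and 0.07 for BCL2L1, and it called BID (-0.38) and CASP9 (-1.64). BCL2L1 also lost its call in 6 of the 8 fits without 1 library (0.32 to 0.49), and CASP2 without input drug replicate 2 (-0.85) or input vehicle replicate 1 (-0.96). By intronic reads CRADD was called (-1.41 ± 0.30, edgeR, adjusted p = 0.00097), 1 of 4 genes (background 28.7%, with 25.7% higher and 2.93% lower). By the ratio none of the 4 genes was called by limma, with none at an unadjusted p under 0.05 (background 9.77%). None of the 12 introns was called, with 1 at an unadjusted p under 0.05, and none of all 22930 introns was called, with 3802 at an unadjusted p under 0.05.

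Among 40 other apoptosis genes, 33 had listed introns and 26 entered the tests of spliced reads. With drug 9 rose and 11 fell in J2 RNA and 8 rose and 8 fell in the input, near or below the background of 74.1% and 70.4%. Their medians were -0.07 and -0.22, against -0.03 and -0.38 over all genes. The PIDDosome scaffold PIDD1, partner of CRADD and CASP2, fell in both kinds of RNA (log2 fold change -1.42 in J2 RNA and -2.43 in the input, edgeR, adjusted p = 5.5e-05 and 3.0e-06). It had 2.68 and 2.75 RPM in J2 RNA with drug against 7.53 and 7.05 RPM with vehicle, and 1.28 and 0.896 RPM in the input with drug against 6.38 and 5.37 RPM with vehicle. The death receptor adaptor TRADD also fell in both (-2.75 and -3.24, edgeR, adjusted p = 7.2e-07 and 3.0e-07). It had 1.68 and 1.49 RPM in J2 RNA with drug against 9.81 and 11.5 RPM with vehicle, and 1.00 and 1.54 RPM in the input with drug against 12.1 and 12.0 RPM with vehicle. AIFM1, a mitochondrial flavoprotein released in cell death, fell in J2 RNA (-1.27, edgeR, adjusted p = 1.9e-06) and had 0.07 in the input (edgeR, adjusted p = 0.53). BIRC5, the inhibitor survivin, rose by 1.15 in J2 RNA and 0.59 in the input (edgeR, adjusted p = 1.1e-06 and 0.00013). The death receptor TNFRSF1A rose by 0.31 and 0.73 (edgeR, adjusted p = 0.00038 and 1.1e-06). Of 10 genes tested for intronic reads 6 rose and 1 fell in J2 RNA and 6 rose and 2 fell in the input, below the background of 89.5% and 84.8%. Those with the smallest p were TNFRSF1A (3.29 in J2 RNA and 3.42 in the input), BIRC5 (4.91 and 3.45) and TNFRSF10B, a TRAIL receptor (2.45 and 1.66). In J2 RNA TNFRSF10A, the other TRAIL receptor (4.43), and the inflammatory caspase CASP4 (3.84) rose by more than TNFRSF1A and are named after their values were seen. The intronic to spliced ratio of 9 genes rose in 7 in J2 RNA and in 8 in the input and fell in none in either, against a background of 87.0% and 86.2% called. The smallest p were those of TNFRSF10A (3.85 in J2 RNA and 2.12 in the input), BIRC5 (3.69 and 2.80) and TNFRSF1A (2.97 and 2.68), and the largest rise that of CASP4 (5.14 and 3.16). No vehicle library of BIRC5, BIRC6, CASP4 or TNFRSF10A had 1 RPM of intronic reads, so these genes were tested because of their drug libraries. Their ranks by p and their part in the counts of rises, for intronic reads and for the ratio, are therefore a description.

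Between J2 RNA and the input, spliced reads of these 26 genes were higher in 7 and lower in 8 with drug and higher in 5 and lower in 7 with vehicle, near or below the background of 55.6% and 60.7%. CYCS, which encodes cytochrome c, was lower in J2 RNA with drug and higher with vehicle (log2 fold change -1.03 and 1.03, edgeR, adjusted p = 1.9e-05 and 2.6e-05). It had 17.4 and 15.4 RPM in J2 RNA against 30.6 and 36.2 RPM in the input with drug, and 30.5 and 28.5 RPM in J2 RNA against 14.7 and 14.3 RPM in the input with vehicle. The interaction was higher in 6 and lower in 7 of the 26 (background 49.6%), with -2.05 for CYCS, -1.34 for AIFM1 and 2.81 for BIRC2, an inhibitor of apoptosis.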

How the data were processed

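RNA was sequenced from SUM159 cells, as J2 RNA and as input, after drug or vehicle. Libraries were polyA-selected and stranded, per the labels' protocols. Per the submitters' processing notes, HISAT2 2.0.4, hg38 and mm10 were used, with no role given. The counting program and strand setting are not given in the sources used here. The authors deposited 2 whole-number counts per intron without normalization, and an RPKM computed from the first count. The files have no header, and the meaning of both counts was inferred from their values. The second count was never below the first in any library. The depth behind the deposited RPKM, 47000000 to 57000000 reads, served as library size. Listed starts and ends are the flanking exon bases, and after an inset of 1 base 142021 of 142224 introns (99.9%) matched GENCODE 29 on GRCh38. Another 18 introns without all values were left out.

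Counts per gene were sums over listed introns and were tested with edgeR 4.0.16, with an SE taken as the absolute log2 fold change divided by the root of F. Ratios were tested with limma 3.58.1, all under R 4.3.3. All 8 libraries entered 1 fit with 4 group means and no replicate block. Genes needed 1 RPM in 2 libraries. Introns needed 10 reads in both libraries of a group and 5 intronic reads in 2 libraries, so drug libraries alone could bring an intron past the filter. Adjusted p-values are Benjamini-Hochberg over all features of a comparison. Only the drug effect in the input was tried on simulated data, with the same spread in every group. That setting does not cover the comparisons with J2 RNA or their wider spread, and nothing is read from it here. The alternatives were TMM, median-of-ratios scaling, DESeq2 1.42.0, other pseudocounts (0.5 and 5), no filter, introns free of other exons, 4-library fits, a replicate block and leaving out each library. Between the 2 libraries of a group, the chi-square of spliced counts over genes was 2.95 to 15.5 per degree of freedom, above the 1 of sampling noise, so they were counted as separate samples. It was highest between the J2 drug libraries. Because the fit shared its spread over the groups, p-values that involve the J2 drug libraries may be too small.

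The members and lists were chosen with earlier results of these data known. Every gene is named. The introns described are up to 3 a gene with the largest change in intronic level, those over 50% intronic, and the least intronic one with drug. The other introns of CASP2, BAK1 and CASP9 and the sequences were chosen after their values were seen. Of the other apoptosis genes, up to 3 a comparison with the smallest p are named, and BCL2L2, BCL2A1, MCL1, BBC3, BMF, BCL2L13 and CFLAR were not analysed here. Intron and protein sequences were not used here.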

Additional observations from a re-analysis of the deposited data

Results flagged for a closer look

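In 6 genes the drug effect on spliced reads differed between J2 RNA and the input by the interaction term (edgeR, adjusted p under the threshold). The difference, J2 RNA minus input on the log2 scale, was -1.06 for CASP2, -0.58 for CRADD, -0.56 for BAX, 0.50 for BAD, 0.44 for BAK1 and 0.40 for BCL2L1. Over all genes 49.6% were called, and the median difference was 0.28. The calls of BAD, BAK1 and BCL2L1 ended under median-of-ratios scaling. Without 1 library the value of BCL2L1 ran from 0.32 to 0.49. CRADD also differed in intronic reads, by -1.41. Spliced reads of BAD were called higher in J2 RNA and lower in the input, a fall that turned to a rise under TMM, median-of-ratios and DESeq2. Those of CRADD were called lower in J2 RNA and had 0.02 in the input, which those scalings turned into a called rise of 0.30 to 0.43.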

How the results depend on the processing

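Of 1631 values under alternatives for 116 results on single genes and introns, 1471 kept direction and side of the threshold, 95 lost a call, 53 gained one and 12 turned round. All 12 were BAD, with log2 values of 0.022 (TMM), 0.15 (median-of-ratios) and 0.15 (DESeq2) for spliced reads in the input, and for intronic reads -1.57, -1.55 and -1.55 in J2 RNA, beside -1.16, -1.18 and -1.18 in the input. With median-of-ratios scaling the ratio of BAD was -2.08 in J2 RNA and -1.41 in the input, and that of its intron 2 was -1.52 in J2 RNA. The cause was not tested.

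Without introns that overlap annotated exons, spliced reads of 4 genes were called in J2 RNA and 4 in the input, 2 for J2 against input with drug, 1 with vehicle and 2 for the interaction, and 3 introns in J2 RNA and 3 in the input. Fewer members could be tested there, and none had enough intronic reads for a value per gene. For J2 against input with vehicle, spliced reads were called in 5 genes (only the 4 libraries), 6 (TMM), 6 (median-of-ratios) and 5 (DESeq2), and intronic reads in 1 under each of these 4. The share called over all genes was 61.6% (TMM), 63.0% (median-of-ratios) and 58.0% (DESeq2) for spliced reads. For intronic reads it was 34.8%, 34.9% and 29.3%. With drug, intronic reads were called in 2 genes with TMM (45.3% over all genes) and in 2 with no filter. Ratio calls with no filter were 6 for the drug in J2 RNA, 0 for J2 against input with drug and 0 with vehicle. With vehicle they were 0 with only the 4 libraries and 2 with a pseudocount of 5. The other counts of called members in this section are given without a share over all features. Nothing is read from them about the members.

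Leaving out each library in turn gave 4 to 7 genes called by spliced reads for the drug in the input, the lowest without input vehicle replicate 1. For J2 against input it gave 0 to 1 by intronic reads and 0 to 2 by the ratio with drug, and 1 to 2 and 0 to 2 with vehicle. It gave 3 to 5 introns for the drug in the input, the lowest without input drug replicate 1. Where a group was left with 1 library, it was assumed to vary like the others.

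Replicate numbers were shared by all groups, but same-numbered libraries did not deviate together (correlations of -0.0803 to 0.0984). A replicate block ended the calls of BAD intronic reads in J2 RNA (0.59) and BAK1 intron 5 in the input (2.69), which left 3 genes and 4 introns called. Low counts limit what can be said of CASP8, which had at most 32 spliced reads in a library and was not tested.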
